A study of Homo sapiens with 14 samples.

Results

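The cytosolic ribosomal protein genes were taken as the protein-coding genes of GENCODE release 29 whose names begin with RPL or RPS and a digit, together with RPLP0, RPLP1, RPLP2 and RPSA. Names with RPS6K and the L and L1 paralogues were left out. This gave 83 genes of 19940 protein-coding genes, of which 43 encode large-subunit proteins, 3 the stalk and 33 small-subunit proteins. The other 4 (RPL17-C18orf32, RPL36A-HNRNPH2, RPS10-NUDT3 and RPS19BP1) came in by name only. Cytosolic ribosomal proteins coat and fold the ribosomal RNA of the small subunit, which decodes the messenger RNA, and of the large subunit, which joins amino acids. The acidic stalk proteins of the large subunit recruit translation factors. Their messenger RNAs are short, are among the most abundant in dividing cells, and begin with a pyrimidine tract through which growth signals set their translation.

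RNA had been sequenced from 293FT cells (of human embryonic kidney origin, with SV40 large T antigen), sorted 40 h after transfection for the top 15% of fluorescence. The 3 hA3A-BE3 libraries came from cells given a base editor that joins human APOBEC3A, a cytidine deaminase that also acts on RNA, to a Cas9 nickase. The 2 PE3 libraries (replicates 2 and 3) came from cells given a prime editor, a Cas9 nickase with a reverse transcriptase. Controls were 3 libraries of cells with Cas9, 3 with EGFP and 3 of non-transfected cells, and the titles of all libraries carry the name of the RNF2 target. All groups are of 1 cell line, and the labels do not say that replicates were separate cultures, so the p-values measure the spread between these libraries.

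Each library was a list of called RNA changes with the reads behind them. The lowest values listed were 2 mutated reads, a level of 5.02% and a depth of 3.01 reads per mapped gigabase, and positions that were not called have no coverage in the lists. A gene without a site was therefore not shown to be unedited. The lists give no gene levels, so the line could not be checked against marker levels, and fewer transcripts and less editing per transcript cannot be told apart. The libraries held 3.26 to 10.6 mapped gigabases, with PE3 replicate 2 the shallowest at 3.26 and Cas9 replicate 2 next at 5.44.

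The 83 genes held 851 calls at 274 sites. A-to-I changes, the mark of the cell's own ADAR enzymes, made up 795 calls at 238 sites in 24 genes. C-to-U changes made up 47 calls at 27 sites in 19 genes, and 9 calls were of other kinds. No site was called in 46 of the 83 genes, which include the stalk genes RPLP0 and RPLP2.

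Sequences of sites that recurred in hA3A-BE3 libraries are shown because they carry the main finding, the C-to-U changes that were listed in hA3A-BE3 and in no control library. Each is 21 bases of the GENCODE transcript, 5′ to 3′, and capitals mark the edited C and the base before it. The first 7 sites were common to the 3 hA3A-BE3 libraries.
RPS16 3′ UTR, 87 bases past the coding end: auaagcccaUCgugacucaaa
RPL27A 3′ UTR, 3767 bases past the coding end: uuuucucuuUCgagaguuuuc
RPS14 R141C: ugacagcacUCgcaggaaggg
RPS16 R125C: agcugacccUCgucgcugcga
RPL37 3′ UTR, 5894 bases past the coding end: gcagcccucUCugggcucccc
RPS19 3′ UTR, 1103 bases past the coding end: ucugagccuUCgucuccucgu
RPL37 3′ UTR, 6933 bases past the coding end: gucccugcgUCacagggaagc
The next 4 sites were called in 2 of the 3 libraries.
RPL34 I97I: cuuuccuuaUCgaggagcaga
RPL7A R137X: accuguccuUCgagcaggagu
RPL37 3′ UTR, 6065 bases past the coding end: uggucucuaUCcuagaccccu
RPL37A I83I: aguccgccaUCagaagacuga
The last 3 are the sites with a G in place of the U, and each was called in 1 library.
RPL10A R25C: ccagcgcaaGCgccgcaaguu
RPL3 R268R: cuguggcacGCgcugggcaga
RPL9 5′ UTR: gcucggcaaGCgccauaugag
In the protein changes the residues are numbered from 1 at the initiator methionine of the transcript used, and X stands for a stop codon. Distances past the coding end hold for the transcript used at each site.

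C-to-U changes were found in ribosomal protein genes of every hA3A-BE3 library. The hA3A-BE3 libraries had 11, 19 and 16 such sites, PE3 replicates 2 and 3 had 0 and 1, and each of the 9 control libraries had 0. The hA3A-BE3 counts did not overlap with those of the other groups. The same held over all genes, so this is not particular to ribosomal protein genes. Over all genes C-to-U calls numbered 2499, 5113 and 6446 in hA3A-BE3, 43 and 44 in PE3 and 42 to 53 in controls. So few control calls leave little room for a site in 83 genes. Ribosomal protein genes held 0.440%, 0.372% and 0.248% of all C-to-U calls in the 3 hA3A-BE3 libraries. Of the 83 genes, 18 (21.7%) had a C-to-U site in hA3A-BE3, beside 4612 of 19940 protein-coding genes (23.1%). The 19940 include genes without reads enough for a call, and these shares were not matched for coverage.

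**Figure D1:**
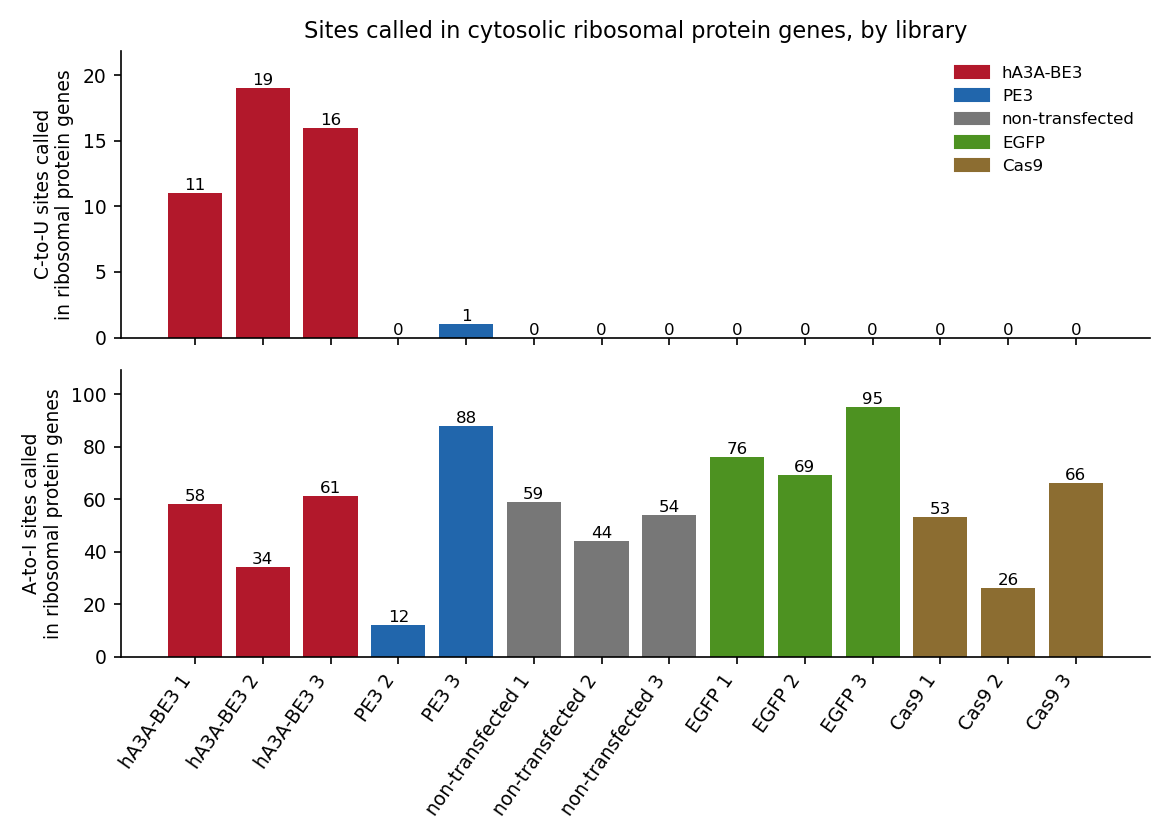
Bars give the number of C-to-U sites (top) and A-to-I sites (bottom) called in ribosomal protein genes in each of the 14 libraries. C-to-U sites stand at 11, 19 and 16 in hA3A-BE3 and at 0 in all 9 control libraries, while the A-to-I counts of hA3A-BE3 lie within the control range of 26 to 95.

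The number of C-to-U sites per gene was tested over all genes, as log2(sites + 1), with a two-sided exact permutation test of hA3A-BE3 against the 9 control libraries and Benjamini-Hochberg adjustment. Across all genes 1209 of 4729 (25.6%) were called higher at an adjusted p under 0.05. The 18 ribosomal protein genes in the test all entered through a site in hA3A-BE3. Of these, 6 were called, RPL27A, RPL37, RPS14, RPS16 and RPS19 among them, each at the smallest exact permutation p that 220 assignments allow (0.00909, adjusted p = 0.0356). The calls are 6 of 18 tested and of 83 in all. Without any 1 of the hA3A-BE3 libraries none of the 6 was called (lowest adjusted exact permutation p 0.0762 to 0.0997), nor with the level limited to 10% or more (0.0501). In these settings 0 genes were called over all genes tested. The median log2 difference was 0.67 in these 18 genes and 0.67 over all genes tested.

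RPL37, a zinc-binding protein of the large subunit, had most C-to-U sites per library. It had 3, 3 and 3 in the hA3A-BE3 libraries and 0 in each control library (log2 difference 2.00). RPS16, a small-subunit protein whose tail touches the transfer RNA in the peptidyl site, had 2, 2 and 2, against 0 in each control library (log2 difference 1.58). RPL27A, a large-subunit protein, and RPS19, a small-subunit protein that is mutated in Diamond-Blackfan anaemia, each had 1, 2 and 1 in hA3A-BE3 and 0 in each control library (log2 difference 1.19). Both calls rest on few reads. With at least 50 covering reads neither gene had a site left. With at least 5 mutated reads RPS19 had none, and RPL27A had 1, in hA3A-BE3 replicate 3 (log2 difference 0.33, adjusted exact permutation p = 0.506, the highest over its alternatives, which began at 0.0352). RPS14, of the small subunit, had 1, 1 and 1 in hA3A-BE3 and 0 in each control library (log2 difference 1.00). In all 6 genes the hA3A-BE3 counts did not overlap with the control counts. This is implied by a call at the smallest possible p, in any gene, and adds nothing to it.

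At the level of single bases, 8 sites in these 6 genes were common to the 3 hA3A-BE3 libraries and listed nowhere else, among 1057 such sites in all genes. RPS14, a small-subunit protein whose reduced dosage is linked to the anaemia of the 5q deletion syndrome, was changed in its coding sequence on the minus strand of chromosome 5 at position 150444321. The R141C site stood at 9.74%, 12.1% and 14.8% in hA3A-BE3 replicates 1 to 3, from 862, 704 and 891 reads (mean 12.2% ± 2.54, SD, n = 3). RPS16 R125C, on the minus strand of chromosome 19 at position 39433341, stood at 7.76%, 12.1% and 14.3%, from 967, 796 and 1077 reads (mean 11.4% ± 3.33, SD, n = 3). Both exchange an arginine for a cysteine in the C-terminal part of the protein. The ranges of these sites overlapped with each other. For RPS16 R125C the Wilson 95% interval of replicate 1, 6.23% to 9.61%, lay below those of replicate 2, 9.98% to 14.5%, and replicate 3, 12.3% to 16.5%. Such intervals cover counting error only, since reads without molecular identifiers are not independent molecules.

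Further along RPS16, the 3′ UTR site at position 39433266 stood at 11.3%, 17.7% and 24.0% in the same libraries, from 274, 209 and 283 reads. It lay in the 3′ UTR of all 4 coding transcripts of the gene. The distance of 87 bases past the coding end holds for the transcript used for this site, which is not that used for R125C. The recurrent sites of RPL27A, RPL37 and RPS19 were all in 3′ UTR stretches that lie in an exon of 1 coding transcript only (of 7 for RPL27A, 3 for RPL37 and 4 for RPS19). In RPL27A, on the plus strand of chromosome 11 at position 8689570, the level was 14.3%, 12.5% and 13.3% from 28, 24 and 45 reads (mean 13.4% ± 0.894, SD, n = 3). In RPS19, on the plus strand of chromosome 19 at position 41872477, it was 7.89%, 10.5% and 9.68% from 38, 38 and 31 reads. These 2 sites rest on few reads, with Wilson 95% intervals of 5.70% to 31.5% (RPL27A, replicate 1) and 2.72% to 20.8% (RPS19, replicate 1).

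In RPL37, on the minus strand of chromosome 5, the site at position 40826613 stood at 7.14%, 11.2% and 11.9% and that at 40825574 at 6.25%, 6.94% and 9.91%. Covering reads at these 2 sites ran from 72 to 202. Another RPL37 site, at position 40826442, was listed in replicates 1 and 3 at 7.5% and 7.29%, and 1 more, at 40826690, in replicate 2 alone at 5.52%. Among the 7 recurrent sites described, the levels of neighbours in the order of means overlapped. The level was lowest in hA3A-BE3 replicate 1 at 7 of the 8 recurrent sites and highest in replicate 3 at 6 of them.

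**Figure D2:**
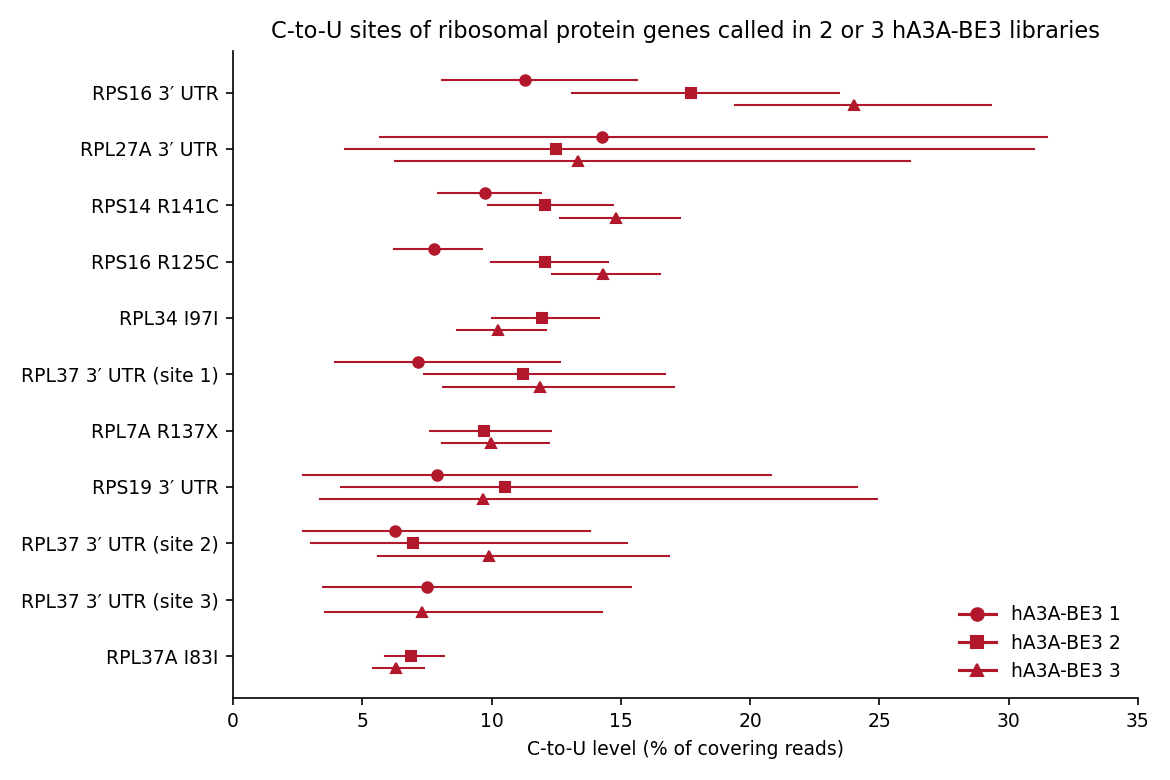
Points give the C-to-U level in each hA3A-BE3 library at 11 sites called in 2 or 3 of them, with Wilson 95% intervals as lines, sorted by the mean. The RPS16 3′ UTR site holds the highest point drawn, at 24.0%, and a missing point is a site not listed in that library.

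Another 3 coding sites with deep coverage were listed in hA3A-BE3 replicates 2 and 3 but not in replicate 1. RPL34 I97I, on the plus strand of chromosome 4 at position 108625149, stood at 11.9% and 10.3% from 938 and 1189 reads. RPL7A R137X, on the plus strand of chromosome 9 at position 133350046, stood at 9.71% and 9.98% from 618 and 812 reads, and turns a CGA arginine codon into the stop codon UGA. RPL37A I83I, on the plus strand of chromosome 2 at position 216501374, stood at 6.87% and 6.32% from 1862 and 2327 reads. RPL34, RPL7A and RPL37A are all large-subunit proteins. None of the 3 genes passed the per-gene test (two-sided exact permutation p = 0.0909, adjusted p = 0.170 for each). RPL22, a large-subunit protein, and RPS6, the small-subunit protein that S6 kinases phosphorylate, also had C-to-U sites in 2 libraries, but at different bases in each.

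The remaining sites were not recurrent. In all, 14 of the 26 hA3A-BE3 sites were called in 1 library, at 5.26% to 11.4%, with 2 of them in replicate 1, 8 in replicate 2 and 4 in replicate 3. In RPS6 the coding change S246F, among the C-terminal serines, stood at 5.65% of 248 reads in replicate 1. RPL38 had a 5′ UTR site at 5.26% of 1862 reads in replicate 3. RPL3, which lines the peptidyl transferase centre, had the synonymous change R268R at 8.10% of 691 reads in replicate 2, and RPL10A had R25C at 6.91% of 333 reads in the same library.

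By subunit, the C-to-U sites of all libraries lay in 11 of 43 large-subunit genes (16 sites), 8 of 33 small-subunit genes (11 sites), and in 0 of 3 stalk genes. By region, 11 of the 26 hA3A-BE3 sites were coding, 12 were in 3′ UTRs and 3 in 5′ UTRs. Coding sites made up 42.3% in ribosomal protein genes and 71.0% in all genes, and 3′ UTR sites made up 46.2% and 25.6%. Of the 12 3′ UTR sites in ribosomal protein genes, 11 lay in an exon of 1 coding transcript and in no exon of the gene's other coding transcripts. They are therefore not in the 3′ UTR of every messenger RNA of the gene. Of the 11 coding changes, 6 kept the residue, 4 exchanged it and 1 made a stop codon. In 5 of the 6 that kept it, AUC became AUU, both isoleucine codons.

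The coding calls in ribosomal protein genes rested on far more reads than those of other genes. In hA3A-BE3 replicates 1, 2 and 3 their median coverage was 847, 691 and 891 reads, and over all genes it was 49, 46 and 55 reads. The lowest coverage of such a call was 248, 333 and 628 reads. Ribosomal protein genes gave 3 of 17, 8 of 25 and 7 of 40 coding calls with at least 500 covering reads. Their median level among these deep calls was 9.74%, 10.8% and 10.3%, beside 7.6%, 8.70% and 8.87% over all genes. The calls in their 3′ UTRs had a median of 80, 72 and 76.5 reads, closer to the 43, 44 and 49 of all genes.

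**Figure D3:**
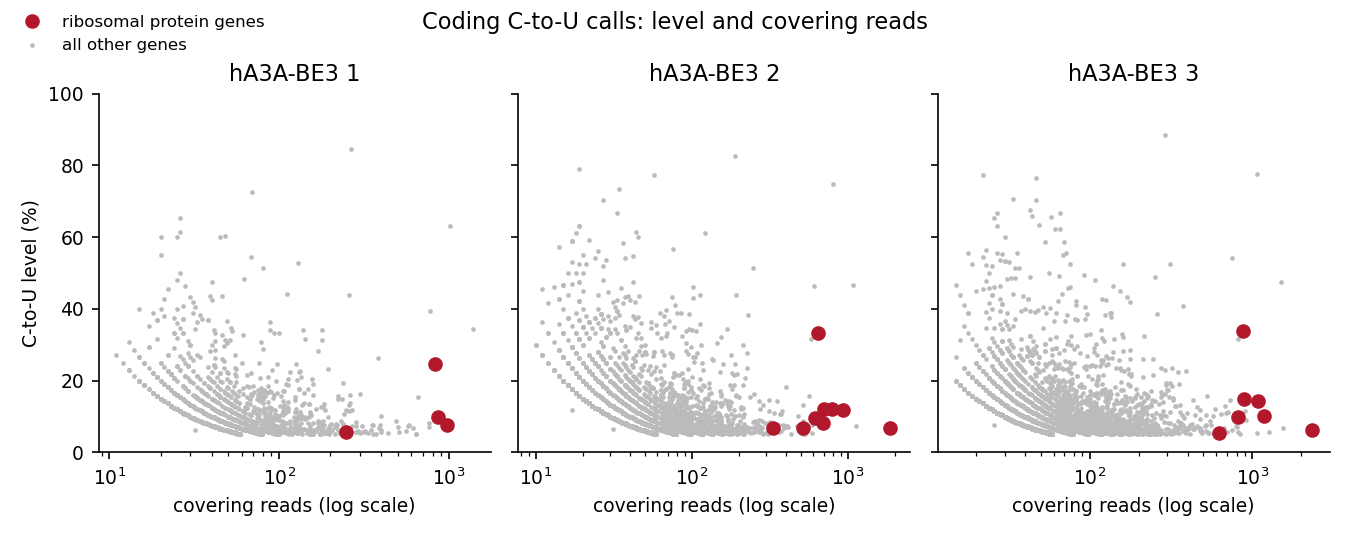
Each point is a coding C-to-U call of an hA3A-BE3 library, placed by its covering reads (log scale) and its level, for ribosomal protein genes and all other genes. The calls in ribosomal protein genes sit at 248 to 2327 covering reads, to the right of most calls, and mostly under 20%.

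Ribosomal protein genes have many processed pseudogenes, copies of the spliced transcript elsewhere in the genome. In GENCODE 29, 1132 pseudogenes were named after 76 of the 83 genes, with a median of 8 per gene. The median was 5 for genes with a C-to-U site and 9 for genes without one. The sources used here do not say how reads that match both a gene and its copies were handled, so the number of covering reads and the lack of sites in a gene are uncertain for this reason. The part of the copies in the results was not tested. Of all calls, 2 lay on these pseudogenes, both A-to-I.

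The base before the edited C was U at 23 of the 26 hA3A-BE3 sites (88.5%), beside 95.3% of the 10186 exonic sites of all genes. APOBEC3A is known to favour a C after U in the loop of a hairpin. A fold of the 41 bases around each site with RNAfold put the C in a hairpin loop at 15 of 26 sites (57.7%), beside 67.6% over all genes. The C was the last base of a 3-base or 4-base loop at 9 sites (34.6%), beside 19.4% over all genes. RPS14 R141C, RPS16 R125C and RPL34 I97I were among these 9. All 3 sites with a G before the C were also the last base of a 4-base loop. The RPL37A, RPL7A, RPS21 and RPL38 sites were among those folded as paired. The fold is a prediction and was not measured.

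The coding sequences of 79 genes (without the 4 taken in by name only) held 2255 C bases after a U, and 9 of these (0.399%) were called in hA3A-BE3, beside 0.352% of 1978555 over all protein-coding genes. The motif CAUC followed by A or G, searched on the transcript strand, occurred 116 times, and 4 of these (3.45%) were called, with sites in RPL37A and RPS21 among them. Over all protein-coding genes 2.25% of 87106 such motifs were called. Of the 9 called UpC bases, 4 were the last base of a 3-base or 4-base loop, and of the 2246 that were not called, 41 (1.83%) were. A base that was not called may also have had too few reads.

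PE3 had a single C-to-U call in these genes. It lay in an intron of RPS12, a small-subunit protein, on the plus strand of chromosome 6 at position 132815846, and was listed in replicate 3 with 2 mutated of 36 reads (5.56%, Wilson 95% interval 1.54% to 18.1%). It was not listed in PE3 replicate 2 or in any other library. Over all genes 0 of 249 were called for C-to-U sites in PE3 against controls (two-sided exact permutation test), and 0 had an unadjusted p under 0.05, where 55 assignments allow no p below 0.0364. Even at that p, a gene could not be called on its own after adjustment. Across all changes, 17 sites of ribosomal protein genes were listed in PE3 and in no other group, 16 of them in replicate 3 and 1 in replicate 2. None of the 17 was in both PE3 libraries. Sites of a single library were also found in other groups: A-to-I sites listed in 1 library alone numbered 15 in PE3 replicate 3, 24 in EGFP replicate 3, 16 in Cas9 replicate 3 and 1 to 8 in each of the other libraries. The 17 sites private to PE3 had 5 to 58 covering reads. The deepest were 2 A-to-I sites in RPL23 at 58 and 36 reads, the RPS12 site at 36, and A-to-I sites in RPL14, RPL27A and RPL37A at 35, 34 and 27.

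Other genes of translation also had C-to-U sites in hA3A-BE3. Of 78 mitochondrial ribosomal protein genes, 28 were tested and 8 called, beside 25.6% called over all genes tested, with 11, 24 and 27 sites in hA3A-BE3 replicates 1 to 3 and 0 in every PE3 and control library. MRPL22 I202I stood at 22.2% ± 4.80 and MRPL10 I89I at 13.3% ± 4.62 (SD, n = 3 each), and a MRPS35 3′ UTR site at 18% ± 4.12 (SD, n = 3). Of 7 elongation factor genes 3 were tested and 3 called, namely EEF1A2, EEF2 and EEF1B2. EEF1A2 I345I stood at 49.3% ± 4.67 (SD, n = 3). Of 30 ribosome-associated and biogenesis factors 18 were tested and 5 called, among them RRP12, RIOK1 and UTP20. As in the ribosomal protein genes, a gene entered the test through a listed site, and the shares called among mitochondrial ribosomal proteins and biogenesis factors lay near that of all genes. Of the 8 L and L1 paralogues 2 were tested and 0 called, each with 1 site in hA3A-BE3 replicate 3 (RPS27L and RPL39L, both at an adjusted exact permutation p above 0.05). FAU, which encodes a ribosomal protein fused to a ubiquitin-like protein, had no C-to-U site.

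A-to-I sites outnumbered C-to-U sites in ribosomal protein genes of all 14 libraries. Ribosomal protein genes had 58, 34 and 61 A-to-I sites in hA3A-BE3, 12 and 88 in PE3, and 26 to 95 in the 9 control libraries (median 59). Per mapped gigabase the values were 7.98, 5.79 and 6.88 in hA3A-BE3, 3.68 and 11.6 in PE3, and 4.78 to 12.5 in the controls. The groups overlapped on both scales. PE3 replicate 2, the shallowest library, was the lowest of the 14 and PE3 replicate 3 was above all but 1 control library in number.

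No A-to-I site lay in a coding sequence or 5′ UTR of these genes. Of the 238 sites, 139 lay in 3′ UTRs and 99 in introns, and 24 of the 83 genes (28.9%) had one, beside 1305 of 19940 protein-coding genes (6.54%). The 19940 are all annotated protein-coding genes, with or without reads enough for a call. The shares were not matched for coverage, so their difference cannot be read as a difference in editing. The 6 genes with most held 134 of the 139 3′ UTR sites. RPL37 had 37 sites, RPL37A 35, RPL14 19, RPL27A 18, RPS19 14 and RPL23 11. All of these encode large-subunit proteins except RPS19. In each of the 6 the sites lay in an exon of 1 coding transcript of several. RPL37A sites lay 375 to 854 bases past the coding end, RPL37 sites 1256 to 6673 and RPL14 sites 167 to 1879. RPL13, a large-subunit protein, had a single 3′ UTR site that was listed in 5 libraries at 8.70% to 28.6%.

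**Figure D4:**
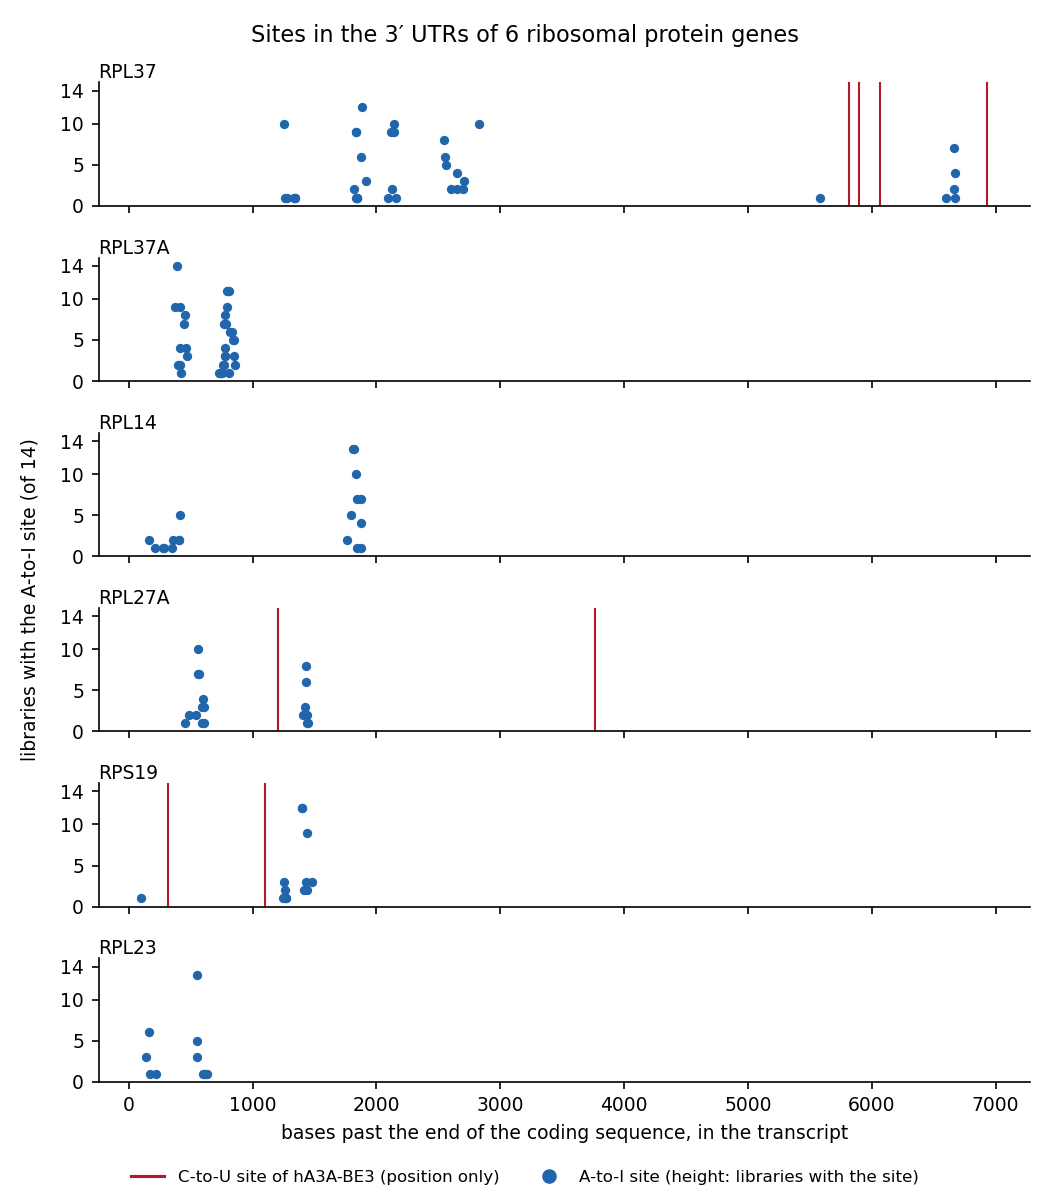
Blue points give the A-to-I sites of 6 ribosomal protein genes by distance past the coding end (x) and number of libraries that list them (y), and red lines mark the C-to-U sites of hA3A-BE3. The RPL37A sites lie in 2 clusters between 375 and 854 bases, and the red lines of RPL37, RPL27A and RPS19 fall between or beyond the blue clusters.

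Alu repeats, which descend from the 7SL RNA, form the double strands that ADAR enzymes edit when 2 of them lie in opposite orientation. Stretches similar to 7SL were sought in the 9 transcripts with 3′ UTR sites with blastn at an E-value of at most 1e-05, and 19 were found in the orientation of 7SL and 27 opposite to it. Of the 139 sites, 39 lay in such a stretch and 100 within 100 bases of one. The share of other bases of these transcripts that lie as near to a stretch is not given here. A link between the stretches and the sites was not tested. In RPL37A all 35 sites lay within 100 bases, in RPL37 28 of 37, and in RPL27A 14 of 18, though none of the RPL27A sites lay inside a stretch. Within 100 bases lay 8 of 14 sites in RPS19, 8 of 19 in RPL14, 4 of 11 in RPL23 and 0 of 2 in RPL28, and all sites of RPL13 (1) and RPS15A (2). A G preceded the edited A at 9.35% of the exonic sites, beside 7.70% over all genes.

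The 3′ UTRs of RPL27A, RPL37 and RPS19 carried both kinds of change. Their C-to-U sites did not coincide with an A-to-I site. The nearest A-to-I site in the same 3′ UTR was 143 to 484 bases away, with the exception of the distal RPL27A site, where it was 2318 bases away. Both kinds were found in 8 genes of the group.

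The intronic A-to-I sites were most numerous in RPS19 (23 sites), RPSA (16), RPL13A (14) and RPL36A (14). RPSA is a small-subunit protein also described as a laminin receptor, RPL13A a large-subunit protein that takes part in interferon-induced translational silencing, and RPL36A a large-subunit protein near the exit site for transfer RNA. The RPL36A site on chromosome X at position 101394277 was listed in 12 libraries, at 23.3% ± 9.57 in hA3A-BE3 (SD, n = 3), 19.0% in PE3 replicate 3 and 27.8% ± 13.7 in 8 control libraries. RPL34 and RPS20 had intronic sites in 5 and 7 libraries with at most 6 sites each. Introns held 1 to 49 sites per control library, and 3′ UTRs held 25 to 46.

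At recurrent A-to-I sites the level varied between libraries. In all, 16 of 238 sites (6.72%) were listed in 10 or more libraries, beside 6.90% over all genes, and they lay in RPL14, RPL23, RPL27A, RPL36A, RPL37, RPL37A and RPS19. The RPS19 site at position 41872775 was the highest by median. It stood at 66.7%, 47.8% and 65.2% in hA3A-BE3, at 57.1% in PE3 replicate 3, and at 42.9% to 59.3% in 8 control libraries. The RPL14 site on the plus strand of chromosome 3 at position 40464044 stood at 33.3%, 47.6% and 50% in hA3A-BE3, 60% and 52.2% in PE3, and 23.5% to 65.0% in 8 control libraries. At both sites the hA3A-BE3 and control ranges overlapped. The neighbouring RPL14 site at position 40464039 ran from 12.1% to 63.6% over 13 libraries, with 10 to 46 covering reads.

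A single site of the group was listed in all 14 libraries and could be tested. This RPL37A 3′ UTR site, at position 216501792, stood at 15.4%, 18.8% and 50% in hA3A-BE3 (mean 28.0% ± 19.1, SD, n = 3), at 16.7% and 30.0% in PE3 (mean 23.3% ± 9.43, SD, n = 2) and at 17.2% to 39.3% in the controls (mean 28.0% ± 7.52, SD, n = 9). The two-sided exact permutation p was 0.973 for hA3A-BE3 and 0.509 for PE3, adjusted to 1 and 0.859 over the 152 sites listed in every library. Its depth was 4.68 ± 0.525 reads per mapped gigabase in hA3A-BE3, 6.86 ± 1.46 in PE3 and 6.36 ± 1.71 in controls (exact permutation p = 0.0818 and 0.618, adjusted p = 0.592 and 0.717). None of the 152 sites was called for level or depth in either comparison, with 3 and 11 at an unadjusted p under 0.05 for level and 10 and 21 for depth, in hA3A-BE3 and PE3. After adjustment over the 152 sites, a site could not be called on its own even at the smallest p. These tests therefore cannot show that levels or depths were equal.

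The per-gene number of sites of all changes other than C-to-U was tested in the same way. Of 2024 genes tested for hA3A-BE3 and 1934 for PE3, 0 were called (0%) by the two-sided exact permutation test, with 28 and 17 at an unadjusted p under 0.05. The smallest exact permutation p allowed is 0.00909 for hA3A-BE3 and 0.0364 for PE3. After adjustment over so many genes, only a large set of genes at that p could be called. The 0 calls therefore do not show that the groups were alike. All 26 ribosomal protein genes in each test had an unadjusted p above 0.05. The nearest were RPL13A in hA3A-BE3, with a mean of 0.333 sites against 3.33 in controls (log2 difference −1.25, exact permutation p = 0.182), and RPL27A in PE3, with 1.5 against 5.56 (log2 difference −1.30, exact permutation p = 0.0727). RPL37 had a mean of 13.3 such sites in hA3A-BE3 and 10.3 in controls (log2 difference 0.32, exact permutation p = 0.482). RPL37A had 9.33 in hA3A-BE3 and 13.4 in controls (log2 difference −0.67, exact permutation p = 0.191). The ranges of the groups overlapped in RPL37 and RPL37A.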

How the data were processed

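RNA changes in 14 libraries of 293FT cells were analysed, and PE3 replicate 1 is not analysed here. The libraries were total RNA depleted of ribosomal RNA, stranded, with paired 150-base reads, per the labels' protocols. The submitters' processing notes list GRCh38, hg38 and BWA 0.7.17 and state no role for them. The sources used here do not give the site caller or its filters. The deposited lists have no header, and their columns were read from the values: the deposited counts of covering and mutated reads, the deposited fraction of edited reads, printed as percent, and a deposited signal column that equals a read depth divided by 1 constant per library, taken as mapped gigabases. The strand of each call followed from the base counts, and 17539 of 17539 exonic sites had the reference base of the GENCODE 29 transcript. An A-to-G change was read as A-to-I and a C-to-T change as C-to-U.

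Members and lists were chosen with earlier results of these data known. A site counted for the gene on its strand. Differences are on the scale of log2(sites + 1), tested hA3A-BE3 or PE3 minus the 9 control libraries with two-sided exact permutation tests and Benjamini-Hochberg adjustment over all genes with a site, called at an adjusted p under 0.05. Named genes are those with a C-to-U site in 2 or more hA3A-BE3 libraries, with another change listed in 3 or more libraries, with the deepest sites private to PE3, or with C-to-U without the base editor, and up to 3 genes per related list. Further genes named at a site were chosen after their values were seen. Results for some genes of the group are left out here. The per-gene test was run on simulated site numbers. Changed genes there had more sites on average than the called ribosomal protein genes, so smaller changes were not checked. Python 3.11.15, SciPy 1.17.1, RNAfold 2.7.2 and blastn 2.17.0 were used. Alternatives were filters on reads, level and mutated reads, other scales, other controls, each library left out, and a replicate block.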

Additional observations from a re-analysis of the deposited data

Results flagged for a closer look

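Of 20 measures of the A-to-I sites examined over the 9 control libraries, 3 had a library that stood apart from the others by Dixon's gap, and Cas9 replicate 2 was that library each time. Chance alone gives about 1 such result in 20. The measures share calls and are not independent, so the 3 are not separate results. Its median A-to-I level in ribosomal protein genes was 20.7%, the highest of the control libraries. Its median covering reads at these sites was 18.5, the lowest, and it had 25 A-to-I sites in their 3′ UTRs, the lowest number. It was also the shallowest control library, at 5.44 mapped gigabases, and the part of this depth in the 3 values was not tested.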

How the results depend on the processing

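Ribosomal protein genes called for C-to-U sites in hA3A-BE3 numbered 4 to 6 under 16 of 24 alternatives. Under these 16, 591 to 1215 genes were called over all genes tested. Under the other 8 the number was 0, both in ribosomal protein genes and over all genes tested. With a level of at least 10% the number was 0 (smallest adjusted exact permutation p = 0.0501), and over all genes it was also 0. With each control group alone it was 0, where 3 against 3 libraries allow no exact permutation p below 0.1. Leaving out 1 library gave 0 to 6, and the 0 came with each hA3A-BE3 library left out (adjusted p = 0.0762, 0.0993 and 0.0997 without replicates 1, 2 and 3), where 2 libraries allow no exact permutation p below 0.0364. With the replicate number as a replicate block it was 0 (smallest adjusted exact permutation p = 0.121), where no p below 0.0313 is allowed. Over 753 genes, 3 of 26 same-numbered pairs of libraries had a correlation over 0.1 (−0.0560 to 0.181). The mean was 0.0345 for same-numbered pairs and −0.0173 for 52 pairs of different number. These correlations cannot decide whether libraries of 1 number share a culture or batch, so the result with the block stands beside the main one. The block changed none of the other counts and neither call at the shared site. The mean number of C-to-U sites in an hA3A-BE3 library, 15.3, fell to 6.67 with a level of at least 10%, and the 8 recurrent sites to 3. All other alternatives for these numbers gave 12 to 17.5 sites and 6 to 11 recurrent sites. The counts of 0 for PE3 and for the other changes remained 0 under every alternative. In these tests a gene at the smallest p could pass the adjustment only together with many others. The counts could therefore hardly change, and their staying at 0 is no sign of robustness. No difference changed sign among the 6 called genes, but none could, since each control library had 0 C-to-U sites in them. The limits on mutated reads and level set what could be listed, so weaker changes are not seen at these depths.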

Other observations

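Intronic A-to-I sites of ribosomal protein genes numbered 32, 25 and 49 in the EGFP libraries, 7, 1 and 27 in the Cas9 libraries and 15, 7 and 12 in the non-transfected libraries. In the 3′ UTRs of the same genes the numbers were 44, 44 and 46 in EGFP, 46, 25 and 39 in Cas9 and 44, 37 and 42 in non-transfected libraries. The 9 calls of other changes lay in genes that include RPL4, RPL24, RPL27A, RPL37, RPS3 and RPS19, each in 1 library of EGFP or non-transfected cells, with 17 to 58 covering reads and 2 to 4 mutated reads.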
